A study of Mus musculus with 6 samples.

Results

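The genes described here are 10 members of the p53 circuit: the gene for p53 itself (Trp53), its inhibitors Mdm2 and Mdm4, and 7 genes that p53 is known to switch on (Cdkn1a, Ccng1, Phlda3, Sesn1, Trp53inp1, Zmat3 and Eda2r). They were chosen by name from the 24972 gene rows of the deposited table, and all 10 passed the minimum mean of 10 normalized counts that left 12477 genes for testing. RNA came from heart cells of mice carrying MX1gfp (a Jackson Laboratory strain), a reporter allele at the interferon-stimulated gene Mx1, which both groups shared. In the vehicle group, 3 mice were injected into the peritoneum with phosphate buffered saline. In the doxorubicin group, 3 mice received 1 dose of 25 mg/kg doxorubicin, an anthracycline that traps topoisomerase II on DNA and so breaks it. Cells were collected 48 hours after the injection, from ventricles digested with collagenase, by letting myocytes settle under gravity, a step that enriches cardiomyocytes without sorting them. The labels give neither the age nor the sex of the mice.

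p53 is a transcription factor that cells hold at a low level because Mdm2, a ubiquitin ligase, marks it for destruction, while the related protein Mdm4 blocks its activity. Breaks in DNA activate kinases that release p53 from both inhibitors, largely without a change in Trp53 messenger RNA. Released p53 binds paired decamers in DNA and raises genes that stop the cell cycle, repair DNA, kill the cell or, through Mdm2 and Ccng1, restrain p53 again.

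The libraries were not alike within the doxorubicin group. Summed normalized counts were 7217950 to 7500390 with vehicle and 5410780 to 6498370 with doxorubicin, and the reads behind them, estimated from the spacing of low values, were about 7710000 to 11400000 and 3670000 to 6170000, so depth and treatment cannot be told apart. Doxorubicin replicate 1 stood nearest to the vehicle libraries, with Spearman correlations across genes of 0.977 to 0.982 against 0.860 to 0.914 for the other doxorubicin libraries. The marker genes of the labelled cell type were present in every library, but the summed level of 10 cardiomyocyte markers was 632044 to 729036 with vehicle and 545182, 194630 and 161214 in doxorubicin replicates 1, 2 and 3. Levels of Xist and the Y-linked Ddx3y put vehicle replicate 3 and doxorubicin replicates 1 and 3 in one class and the remaining libraries in another.

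Sequences near the transcription start were searched for the letters that p53 is known to bind. The 300-base windows of RefSeq (GRCm38.p6), from 250 bases before to 50 after a start, were available for 8 members in 11 windows, and not for Zmat3 and Trp53inp1. Each window was searched for the p53 consensus, a pair of p53 decamers at most 3 bases apart, which reads the same on both strands. The 6 stretches below run 5′ to 3′ on the strand of the gene and hold the best match of each gene in capitals. Those of Cdkn1a and Ccng1 are shown because these genes carry the closest matches of the group and differed in opposite directions. The others are printed beside them.
Cdkn1a, chr17:29090908-29090967, plus strand: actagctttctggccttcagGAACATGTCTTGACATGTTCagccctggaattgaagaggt
Ccng1, chr11:40755442-40755501, minus strand: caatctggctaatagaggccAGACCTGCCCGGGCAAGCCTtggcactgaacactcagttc
Sesn1, chr10:41887233-41887295, plus strand: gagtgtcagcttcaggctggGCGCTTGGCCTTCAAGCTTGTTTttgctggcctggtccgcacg
Trp53, chr11:69580264-69580323, plus strand: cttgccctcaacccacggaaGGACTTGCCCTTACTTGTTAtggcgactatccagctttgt
Mdm2, chr10:117710903-117710964, minus strand: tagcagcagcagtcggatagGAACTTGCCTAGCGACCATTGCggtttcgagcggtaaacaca
Eda2r, chrX:97377391-97377451, minus strand: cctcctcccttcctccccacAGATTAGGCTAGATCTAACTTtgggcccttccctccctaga

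The capitals of Cdkn1a and of Ccng1 each differed from the consensus at 1 of 20 bases, with no gap between the decamers. The Cdkn1a match lay at positions -51 to -32 from the upstream of its 2 starts, at 29090928 to 29090947. In the window at the other Cdkn1a start the best match had 5 mismatches. The Ccng1 match lay at -195 to -176 from its start, at 40755462 to 40755481. A match with at most 1 mismatch was present in 129 of 32851 windows (0.393%), a share per window and not per gene. Sesn1 had 2 mismatches around a gap of 3 bases, at -186 to -164 from the start of its shorter transcript and inside an intron of the longer, and 3.59% of windows held a match at least as close. The best matches of Trp53, Eda2r and Mdm2 had 3, 4 and 4 mismatches, and those of Mdm4 and Phlda3, not printed, 3 and 5. A match with at most 3 mismatches was present in 21.3% of windows, so matches with 3 or more mismatches are unremarkable. The GENCODE M21 annotation placed no exon over any of the 6 stretches. Sequence outside these windows was not searched. A match describes these letters and is not a measured binding site.

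Of the 12477 genes tested with limma, 0 passed an adjusted p of 0.05 (Benjamini-Hochberg) upward and 0 downward (background 0%), so 0 of the 10 members passed in either direction. The smallest adjusted p among the members, 0.0859, was also the smallest of all genes. At an unadjusted p under 0.05, 4 members were higher (Cdkn1a, Trp53inp1, Eda2r and Phlda3) against a background of 16.7% of genes, and 1 was lower (Ccng1) against 19.3%. The values of the groups did not overlap for 4 members that were higher (Cdkn1a, Trp53inp1, Eda2r and Mdm2) against a background of 19.2%, and for 1 that was lower (Ccng1) against 22.6%. The median log2 fold change of the members was 0.58, against -0.0046 for all genes tested. Without doxorubicin replicate 1, the treated library nearest to vehicle, limma put 5 members higher (Cdkn1a, Trp53inp1, Phlda3, Eda2r and Zmat3, background 19.3%) at an adjusted p under 0.05. It put 1 lower (Ccng1, background 21.8%). Removing the treated library nearest to vehicle favours larger differences and smaller p-values. These calls, and the values without that library given below, therefore add no support. Leaving out any other single library gave 0 members in either direction. The p-values weigh each group difference against the spread between these 3 mice per group, which limma draws towards that of genes of similar level. With equal totals in place of the deposited scaling, the median of all genes tested was 0.29, so values near 0 have no settled sign.

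**Figure D1:**
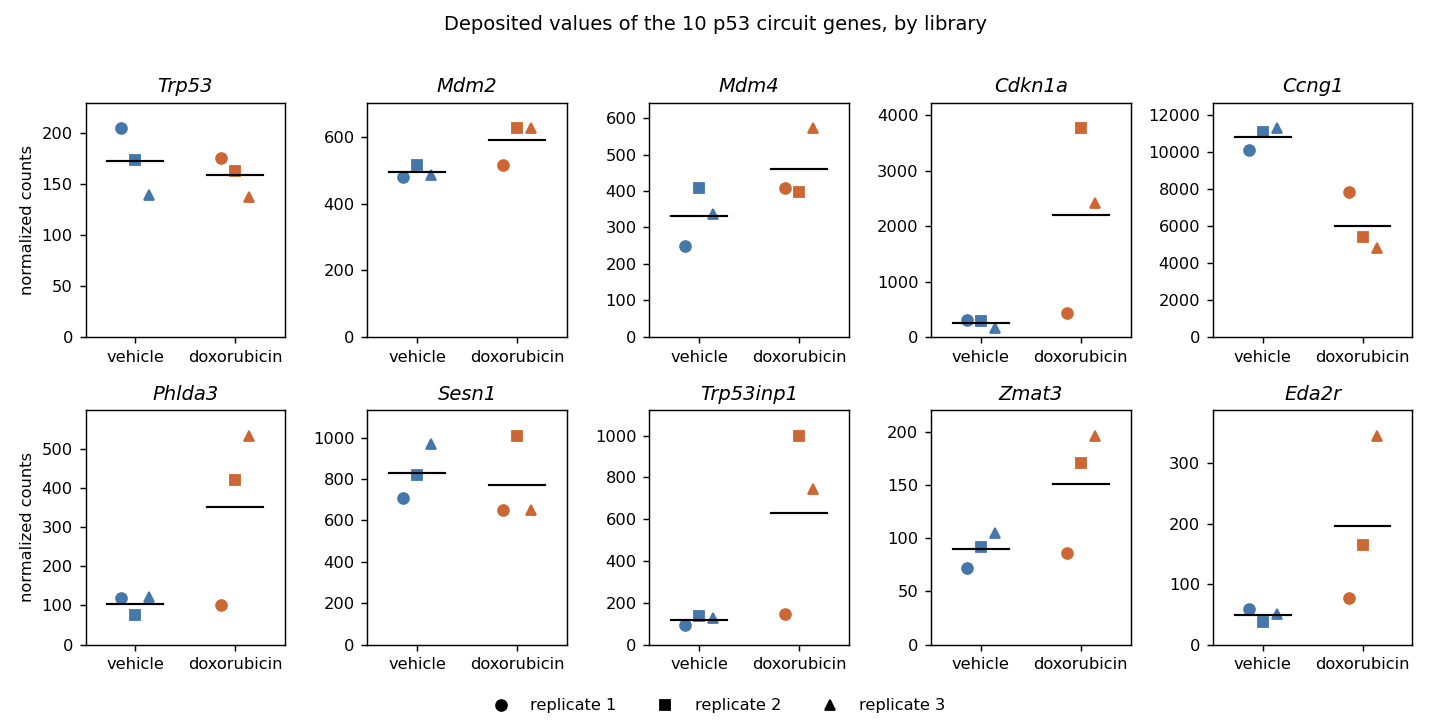
Normalized counts (vertical axes, each starting at 0) of the 10 genes in each vehicle and doxorubicin library; marker shapes are replicates and bars are group means. Doxorubicin replicate 1 (circle) sits near the vehicle points in most panels, whereas Cdkn1a reaches 3774 in replicate 2 and Ccng1 is at 4799.8 in replicate 3.

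Trp53 (chromosome 11, 69580348 to 69591873, GRCm38.p6 as for all genes) itself was at 205, 173 and 139 normalized counts in vehicle replicates 1 to 3 and at 176, 163 and 137 in doxorubicin replicates 1 to 3. The groups overlapped almost completely. The means were 172 ± 33.1 and 158 ± 19.6 (SD, n = 3 in each group), and the log2 fold change was -0.11 with a 95% interval from -0.56 to 0.34 (limma adjusted p 0.708). Its sign was not fixed, at 0.19 when libraries were scaled to equal totals and 0.026 without vehicle replicate 1.

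Neither inhibitor passed the test. Mdm2 (chromosome 10, 117688875 to 117710758), both a target and the main ubiquitin ligase of p53, was at 479.6, 516.1 and 487 in the vehicle libraries, against 516.5, 627 and 627 in the doxorubicin libraries. The groups did not overlap, but doxorubicin replicate 1 exceeded vehicle replicate 2 by only a fraction of a count. From a mean of 494 ± 19.2 to one of 590.3 ± 63.9 (SD, n = 3 each), the log2 difference was 0.25 (SE 0.14, limma adjusted p 0.235). Mdm2 was the steadiest member among the vehicle libraries, with 1.08-fold between the highest and the lowest.

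Mdm4 (chromosome 1, 132986105 to 133030587), a relative of Mdm2 that masks the activation domain of p53, was at 249.9, 407.9 and 336 with vehicle and at 408.5, 398 and 573 with doxorubicin. Doxorubicin replicate 2 fell within the vehicle range, so the groups overlapped. It differed by 0.48 on the log2 scale (SE 0.23, limma adjusted p 0.172). With equal totals, where the median of all genes was 0.29, the groups of Mdm4 did not overlap and the difference was 0.78 (limma adjusted p 0.0788). With quantile normalization the groups overlapped, at 0.52. Per kilobase of transcript, the ratio of Mdm4 to Mdm2 ranged from 0.231 to 0.350 with vehicle and from 0.280 to 0.404 with doxorubicin, with overlap.

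Cdkn1a (chromosome 17, 29090979 to 29100722) encodes p21, the inhibitor of cyclin-dependent kinases that carries out p53-driven arrest. It was at 310.3, 289 and 158 with vehicle and at 433, 3774 and 2422 with doxorubicin (replicates 1 to 3 in order). All 3 doxorubicin values lay above all 3 vehicle values, and the doxorubicin libraries differed among themselves by 8.72-fold. Relative to the vehicle mean they stood at 1.71-fold, 14.9-fold and 9.58-fold. The means were 253 ± 82.3 and 2209.5 ± 1681 (SD, n = 3 each), and the log2 difference was 2.70 with a 95% interval from 0.98 to 4.42 (limma adjusted p 0.0859). It ranked 86th of 12477 genes by the size of its difference, and without doxorubicin replicate 1 it was 3.64 higher (adjusted p 0.000242). Without doxorubicin replicate 2 the value was 2.07 (adjusted p 0.166), and without replicate 3 it was 2.39 (adjusted p 0.192). In GENCODE, 273 of the 3553 exon bases of Cdkn1a are shared with an unnamed transcript on the opposite strand, and whether the counting used strand is not given in the sources used here.

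Trp53inp1 (chromosome 4, 11156441 to 11174379), a stress protein that assists p53 and takes part in autophagy, had the same order among the doxorubicin libraries as Cdkn1a. It was at 94.8, 136 and 128 in the vehicle libraries and at 145, 1001 and 743 in the doxorubicin libraries. Replicate 1 cleared the highest vehicle value narrowly, and replicates 2 and 3 stood at 8.36 and 6.20 times the vehicle mean. Its log2 fold change was 2.00 with a 95% interval from 0.49 to 3.51 (limma adjusted p 0.0878), 2.85 without doxorubicin replicate 1 (adjusted p 0.000162) and 1.47 without replicate 2 (adjusted p 0.183).

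Eda2r (chromosome X, 97333837 to 97377234), a receptor of the tumour necrosis factor family for the ligand ectodysplasin A2, was at 58.6, 37.9 and 50.8 in the vehicle libraries and at 77.0, 165 and 346 in the doxorubicin libraries. The groups did not overlap, and replicate 3, not replicate 2, was highest. The log2 fold change was 1.74 with a 95% interval from 0.59 to 2.89 (limma adjusted p 0.0859). It was 2.28 without doxorubicin replicate 1 (adjusted p 0.00149) and 1.21 without replicate 3 (adjusted p 0.190). Eda2r is X-linked, and the difference was 1.67 among the libraries with Xist (1 vehicle, 2 doxorubicin) and 1.79 among those with Ddx3y (2 vehicle, 1 doxorubicin), both without a test.

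Phlda3 (chromosome 1, 135766085 to 135769134), a pleckstrin-domain protein that competes with Akt for membrane lipid, was at 118, 74.9 and 120.3 with vehicle and at 101, 419 and 533 with doxorubicin. Replicate 1 lay inside the vehicle range, and replicates 2 and 3 lay at 4.01 and 5.10 times the vehicle mean. On the log2 scale it differed by 1.46 (SE 0.58, limma adjusted p 0.121), 2.20 without doxorubicin replicate 1 (adjusted p 0.000497) and 1.00 without replicate 3 (adjusted p 0.318).

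Zmat3 (chromosome 3, 32334792 to 32365665), a zinc finger protein that binds RNA, showed a smaller difference of the same shape. It was at 72.3, 91.4 and 105 in the vehicle libraries and at 86.1, 171 and 197 in the doxorubicin libraries. Replicate 1 again lay inside the vehicle range. Its log2 difference was 0.68 (SE 0.32, limma adjusted p 0.167), 1.04 without doxorubicin replicate 1 (adjusted p 0.00541) and 0.45 without replicate 3 (adjusted p 0.415).

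Sesn1 (chromosome 10, 41810574 to 41908436), a sestrin that restrains the growth kinase mTORC1 under stress, had no common direction. It was at 706, 817 and 967 in the vehicle libraries and at 652, 1009.6 and 651 in the doxorubicin libraries. Replicates 1 and 3 lay below every vehicle library and replicate 2 above every one. Its log2 difference was -0.13 with a 95% interval from -0.64 to 0.39 (limma adjusted p 0.697), and it became 0.17 with equal totals and 0.050 with library weights. The difference was -0.57 among the libraries with Xist (1 vehicle, 2 doxorubicin). Among those with Ddx3y (2 vehicle, 1 doxorubicin) it was 0.41, both without a test.

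Ccng1 (chromosome 11, 40748552 to 40755309) encodes cyclin G1, which helps a phosphatase act on Mdm2 and so restrains p53. It was at 10092, 11053 and 11297 with vehicle and at 7832, 5409.7 and 4799.8 with doxorubicin (replicates 1 to 3 in order). Every doxorubicin library lay below every vehicle library, and replicate 1, at -0.46 on the log2 scale from the vehicle mean, was nearest to the vehicle group, with replicate 3 farthest at -1.17. The means were 10814 ± 637 and 6014 ± 1604 (SD, n = 3 each), and the log2 difference was -0.88 with a 95% interval from -1.50 to -0.26 (limma adjusted p 0.0859). The difference was -1.08 without doxorubicin replicate 1 (adjusted p 0.00586), -0.73 without replicate 3 (adjusted p 0.190), -0.58 with equal totals and -0.38 with quantile normalization, with groups that did not overlap under either scaling.

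**Figure D2:**
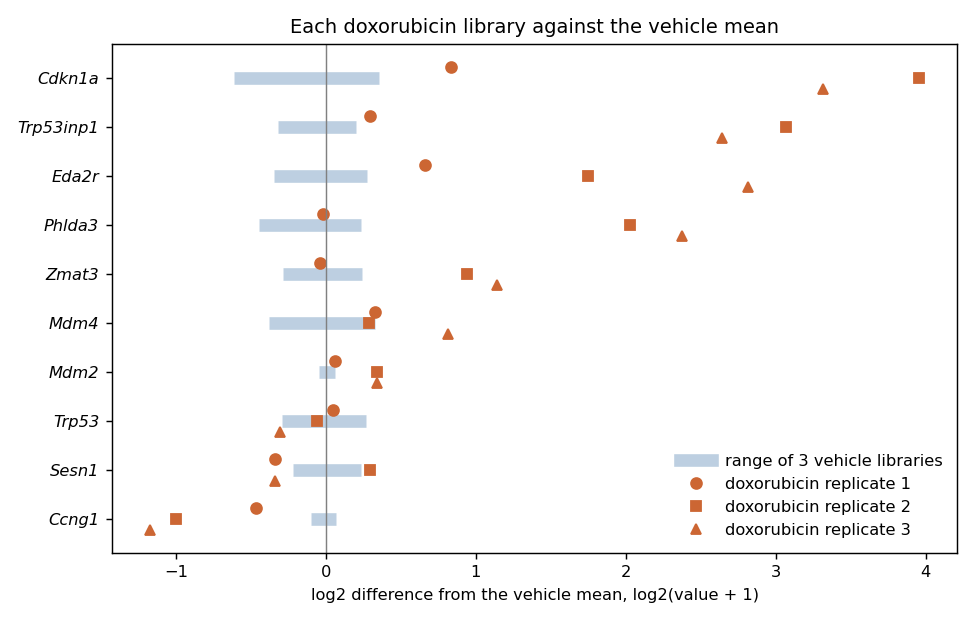
Log2 difference of each doxorubicin library from the vehicle mean (horizontal axis), with the range of the 3 vehicle libraries as a band, for each gene. Replicates 2 and 3 lie far to the right for Cdkn1a, Trp53inp1, Eda2r and Phlda3, replicate 1 lies within or close to most bands, and all 3 lie to the left of the band for Ccng1.

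Seen by library, doxorubicin replicate 1 had 5 members above every vehicle library (Cdkn1a, Eda2r, Mdm4, Trp53inp1 and Mdm2), 2 below (Ccng1 and Sesn1) and 3 within the vehicle range (Trp53, Phlda3 and Zmat3), where 29.4% of all genes tested lay above and 34.6% below. Replicate 2 had 7 above (background 39.8%) and 1 below (40.3%). Replicate 3 had 7 above (background 42.3%) and 3 below (43%). The median difference of the 10 members from the vehicle mean was 0.06, 0.64 and 0.98 on the log2 scale in replicates 1, 2 and 3, while the median of all genes tested was -0.01, 0.0023 and -0.0061. Replicate 2 held the highest value of Cdkn1a, Trp53inp1, Mdm2 and Sesn1, and replicate 3 the highest of Eda2r, Phlda3, Zmat3 and Mdm4. The highest library thus differed from gene to gene.

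**Figure D3:**
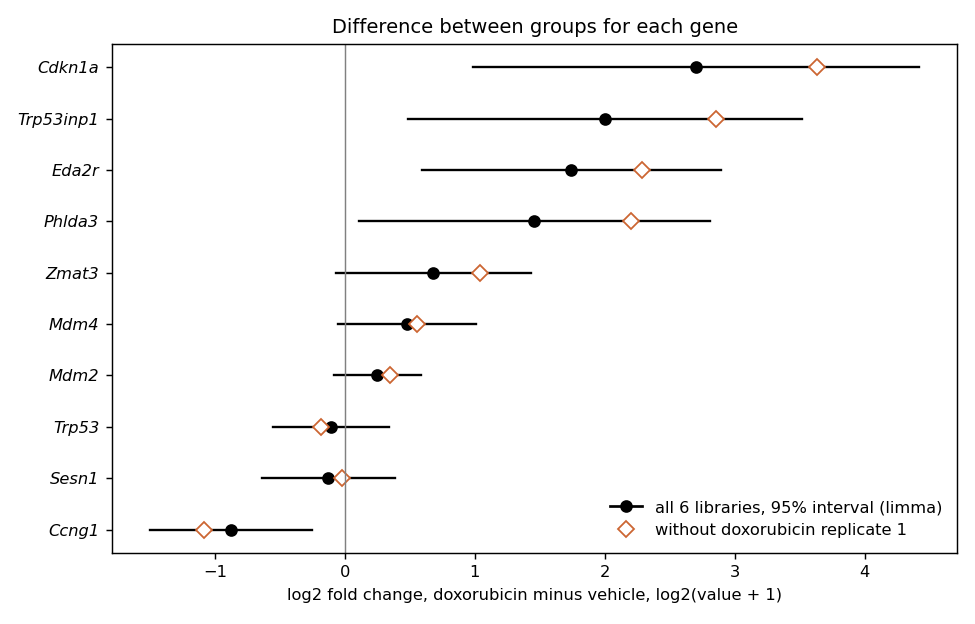
Log2 fold change of each gene, doxorubicin minus vehicle (horizontal axis), with its 95% interval from limma over all 6 libraries (filled circles) and its value without doxorubicin replicate 1 (open diamonds). The intervals of Cdkn1a, Trp53inp1, Eda2r and Phlda3 lie above 0 and that of Ccng1 below 0, before adjustment over the 12477 genes.

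Ratios between members within a library do not depend on how that library was scaled. Per kilobase of transcript (the longest protein-coding transcript of GENCODE M21), Cdkn1a stood at 0.0519, 0.0442 and 0.0237 of the level of Ccng1 in vehicle replicates 1 to 3, and at 0.0933, 1.18 and 0.852 in doxorubicin replicates 1 to 3. In doxorubicin replicate 2 the arrest gene exceeded Ccng1, the most abundant member. The log2 ratio was 3.58 higher in the doxorubicin group, with every doxorubicin library above every vehicle library (exact two-sided permutation p 0.1, the smallest that 3 against 3 allows). This pair was chosen because its opposite differences were already known. Neither gene overlapped between the groups, so the separation of the ratio and its p-value were fixed in advance and add no support. Between the direct targets Cdkn1a and Mdm2, the same ratio per kilobase was 0.978, 0.847 and 0.492 in the vehicle libraries and 1.27, 9.09 and 5.84 in the doxorubicin libraries. The log2 ratio was 2.45 higher, again without overlap (exact two-sided permutation p 0.1, again the smallest possible). This pair too was chosen with earlier results known, and Cdkn1a differed far more than Mdm2, so this ratio adds no support either.

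The order of levels per kilobase in the vehicle libraries, from the highest mean, was Ccng1 (3079), Sesn1 (218), Mdm2 (157), Cdkn1a (121), Trp53 (92.2), Phlda3 (72.8), Mdm4 (46.6), Trp53inp1 (22.2), Zmat3 (11.5) and Eda2r (10.3). The ranges of 4 of the 9 neighbouring pairs overlapped, namely Cdkn1a with Trp53, Trp53 with Phlda3, Phlda3 with Mdm4, and Zmat3 with Eda2r. After doxorubicin Cdkn1a had the next highest mean after Ccng1, 1062 against 1712 for Ccng1, followed by Phlda3 at 245. All 9 neighbouring pairs overlapped there.

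By Pearson correlation of log2(value + 1) over the 6 libraries, among 8223 other genes with a mean of at least 100, the genes with the pattern most like Cdkn1a were Sart1 (r 0.999), Sfxn3 (0.999) and Icam1 (0.998). Icam1, an adhesion molecule that binds leukocytes, was at 182, 161 and 125 with vehicle and at 227, 956 and 684 with doxorubicin. The pattern most like Ccng1 was that of Carnmt1 (0.999), Dirc2 (0.999) and Tmed4 (0.998). Carnmt1 was at 736, 776 and 805 with vehicle and at 537, 358 and 309 with doxorubicin. Among the members, Mdm2 (0.965) and Trp53inp1 (0.961) were nearest to Cdkn1a, in ranks 360 and 406, so many genes outside the circuit followed Cdkn1a more closely. With 6 libraries in 2 groups these coefficients describe likeness only.

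The wider set of p53 targets also held genes in both directions. Of 32 further targets, 27 were tested, 21 had a higher and 6 a lower mean on the log2 scale, and their median log2 fold change was 0.66. The groups did not overlap for 6 higher (background 19.2%) and 3 lower (22.6%). By limma 0 passed an adjusted p of 0.05 with all libraries and 12 had an unadjusted p under 0.05 (background 35.9%). Without doxorubicin replicate 1, 12 were higher (background 19.3%) and 3 lower (21.8%) at an adjusted p of 0.05.

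Among 11 targets that promote cell death, 9 were tested, 7 higher and 2 lower, with a median of 0.92. Fas, the death receptor, had the highest log2 difference of the list, at 88.4 to 114 with vehicle and at 199, 433 and 517 with doxorubicin (log2 fold change 1.80, limma adjusted p 0.0859). Bbc3, which encodes the BH3 protein PUMA, was at 34.2 to 38.7 and at 37.3, 91.3 and 177 (1.17, adjusted p 0.139), with replicate 1 inside the vehicle range. Perp, a desmosome protein also linked to p53 killing, was lower in every doxorubicin library, at 721 to 937 against 1109.8 to 1235 (-0.56, adjusted p 0.0859). The nuclease gene Aen differed by -0.01, and by 0.29 under equal totals, where Perp was still lower at -0.26.

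Among 12 targets in DNA repair, nucleotide supply and metabolism, 11 were tested, 8 higher and 3 lower, with a median of 0.23. Ddit4, an inhibitor of mTORC1 also known as Redd1, was at 122 to 275 with vehicle and at 290.5, 1737 and 1425 with doxorubicin, without overlap (log2 fold change 2.25, limma adjusted p 0.0859). Sesn2, the sestrin relative of Sesn1, was at 20.9 to 39.9 and at 27.5, 109 and 133 (1.37, adjusted p 0.135). Tigar, a fructose bisphosphatase, was lower without overlap, at 215 to 416 against 552 to 640 (-0.98, adjusted p 0.0859). Triap1, a small mitochondrial protein, differed by -0.19 and by 0.11 under equal totals.

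Among 9 targets in growth arrest, feedback and secretion, 7 were tested, 6 higher and 1 lower, with a median of 0.66. The secreted stress factor Gdf15 was at 6.28 to 16.6 with vehicle and at 19.7, 46.2 and 95.9 with doxorubicin, without overlap (log2 fold change 2.07, limma adjusted p 0.0859). Ckap2, a spindle protein, was at 2.66 to 5.78 and at 12.6, 8.39 and 30.2 (1.57, adjusted p 0.121), levels of a few reads. Gadd45a, a growth arrest gene, went the other way without overlap, at 132 to 163 against 123, 57.2 and 47.3 (-1.11, adjusted p 0.0863). The kinase gene Plk2 differed by 0.21 with overlap.

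Regulators that act on the p53 protein showed small differences. Of 19, 17 were tested, 7 higher and 10 lower, with a median log2 fold change of -0.03, near that of all genes. The groups did not overlap for 2 higher and 2 lower genes, shares below the background in both directions. Cop1, a ubiquitin ligase for p53, was lower without overlap, at 791 to 910.2 with vehicle and at 643, 524 and 499.8 with doxorubicin (-0.63, limma adjusted p 0.0859). Hipk2, a kinase of p53, differed by -0.61 with overlap, Daxx, a histone chaperone that joins Mdm2, by 0.41 without overlap, and the acetylase gene Ep300 by 0.40 with overlap.

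The cell cycle machinery on which p21 acts was likewise mixed. Of 15 genes of G1 cyclins, kinases, pocket proteins and E2F factors, 14 were tested, 7 higher and 7 lower, with a median of -0.02. Rbl1, which encodes the pocket protein p107, was higher without overlap, at 31.2 to 49.9 with vehicle and 83.1, 68.9 and 102 with doxorubicin (1.04, limma adjusted p 0.0859). Ccnd2, cyclin D2, was at 973 to 1302 with vehicle and at 1161, 425 and 569 with doxorubicin (-0.77, adjusted p 0.155), so only replicates 2 and 3 lay below. E2f1 differed by 1.16 and Ccne2 by -0.92, both with overlap and at levels of 3.75 to 35.3.

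Relatives of the members lay on both sides of 0. Of 13 relatives and pathway partners, 8 were tested, 4 higher and 4 lower, with a median of 0.05. Ccng2, which encodes cyclin G2, was higher without overlap, at 140.01 to 144 with vehicle and 186, 283 and 282 with doxorubicin (0.79, limma adjusted p 0.0859), opposite in sign to Ccng1. Trp53inp2 was lower without overlap, at 7824 to 8297 against 6241, 6259 and 2776 (-0.74, adjusted p 0.161), opposite in sign to Trp53inp1. Sesn3 differed by -0.45 with overlap. Eda, the gene for the ligand of Eda2r and its sister receptor, was at 15.4 to 30.5 with vehicle and at 29.4, 63.0 and 74.9 with doxorubicin (1.10, adjusted p 0.112), with replicate 1 inside the vehicle range. The difference between relatives was not tested.

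**Figure D4:**
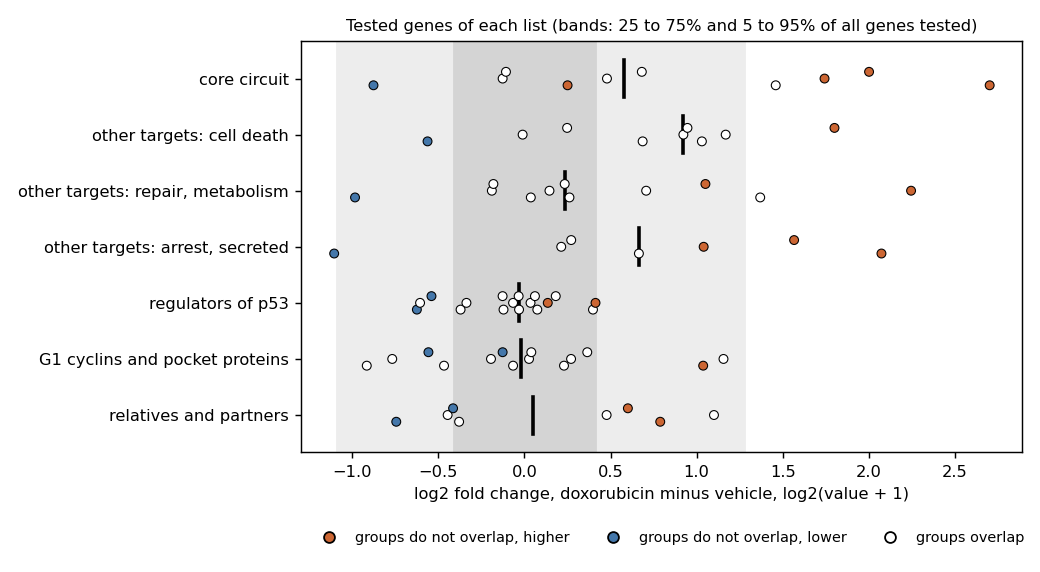
Log2 fold change (horizontal axis) of each tested gene in the core circuit and 6 further lists; coloured points have groups that do not overlap, thick bars are list medians, and grey bands mark the middle of the distribution of all genes tested. The target lists have medians of 0.23 to 0.92, and the regulators, the G1 genes and the relatives lie around 0.

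Tested genes with a close p53 match in a promoter window lay on both sides of 0. Of 29 genes with at most 1 mismatch, 14 were higher and 15 lower, with a median log2 fold change of -0.05, against -0.0069 for all 9805 tested genes with a window. The groups did not overlap for 7 of the 29 higher (24.1%, against 19.0% of the 9805) and for 6 lower (20.7%, against 23.1%). Cdkn1a and Ccng1, whose stretches are printed above, are both among the 29 and represent both directions. This search was added after the data had been seen. A match is not a measured binding site, so no conclusion is drawn from these counts.

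Marker lists of some other cell types also differed between the groups, not all in the library order of Cdkn1a. The summed level of 10 macrophage markers was 2583 to 2791 with vehicle and 4238, 7421 and 15615 in doxorubicin replicates 1 to 3. Of the 10, 9 were higher with groups that did not overlap (background 19.2%). The sum of 6 neutrophil markers was 10.5 to 21.7 and then 55.0, 563 and 419, with the defining marker Ly6g at 0 in the vehicle libraries and doxorubicin replicate 1 and at most 1.48 in the others. The 8 fibroblast markers summed to 6236 to 8274 and then 8639, 22816 and 16406, sums that turned on Dcn, the gene for the matrix proteoglycan decorin. Without Dcn they summed to 5369, 3725 and 3790.4 with vehicle and to 5526, 4744 and 5079.7 with doxorubicin, with overlap. Only Dcn, Pdgfra and Tcf21 of the 8 had groups that did not overlap, all higher (background 19.2%). The 8 endothelial markers summed to 13112 to 16872 and then 21873, 20433 and 26390.

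**Figure D5:**
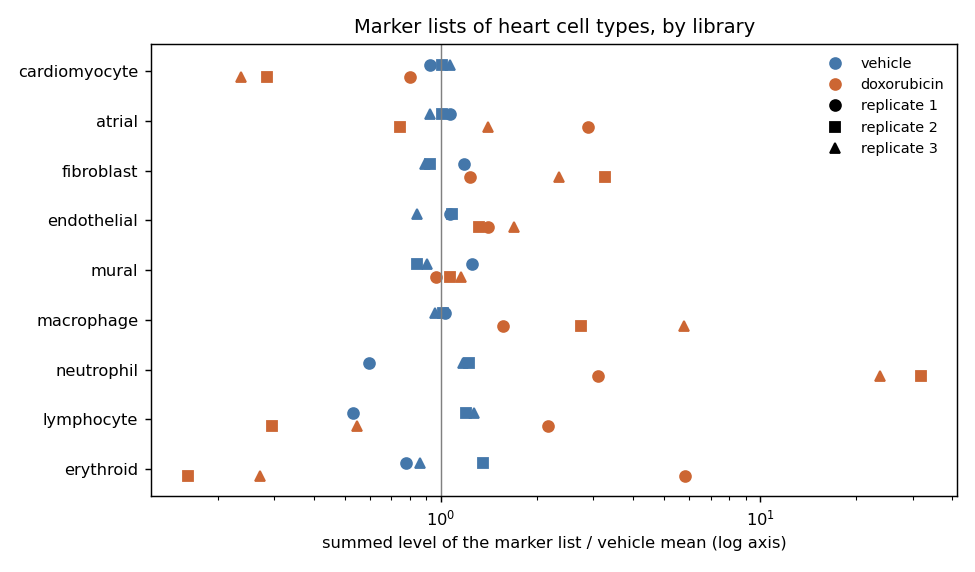
Summed level of each marker list divided by its vehicle mean (horizontal log axis) in every library; colours are groups and shapes are replicates. Cardiomyocyte markers lie lowest in doxorubicin replicates 3 and 2, where macrophage and neutrophil markers lie above every vehicle library; the fibroblast sum lies above them too, but not without Dcn.

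Among the cardiomyocyte markers, 10 of 10 were lower and 8 did not overlap (background 22.6%), with a median log2 fold change of -1.41. Ccng1, at -0.88, fell less than most of them but more than Tnnt2, Pln and Actn2 (-0.78, -0.79 and -0.78). With equal totals the marker median was -1.11. With quantile normalization it was -0.65, with 8 of 10 lower and Tnnt2 and Pln higher at 0.36 and 0.46. Mural markers overlapped between groups, lymphocyte markers summed to at most 88.1, and the 4 atrial markers and 5 erythroid markers were highest in doxorubicin replicate 1, at 1426 and 9027, against at most 526 and 2104 in the vehicle libraries. Hbb-bs was at 0 in all libraries. The part of these cell types in the differences of Cdkn1a, Trp53inp1, Eda2r, Phlda3, Zmat3 and Ccng1 was not tested, and in such bulk libraries fewer cells of a type and less RNA per cell cannot be told apart. Within the class of libraries with Ddx3y the differences of Cdkn1a, Trp53inp1, Phlda3, Zmat3 and Ccng1 were 3.65, 3.13, 2.14, 1.06 and -0.97. Within the class with Xist they were 2.68, 1.35, 0.94, 0.31 and -0.88. Sesn1 and Trp53 changed sign, at 0.41 and -0.21 with Ddx3y and at -0.57 and 0.16 with Xist. Mdm2 and Mdm4 were at 0.33 and 0.32 with Ddx3y and at 0.22 and 0.52 with Xist. These are values without a test because each class holds a single library of one group.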

How the data were processed

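RNA-seq values for 6 libraries, 3 vehicle and 3 doxorubicin, were taken from 1 deposited table of a never-negative signal, normalized read counts per gene, with groups and replicate numbers from the sample titles. Per the labels, the authors aligned reads with STAR in BaseSpace RNAseq Alignment 2.0.2 to mm10 with RefSeq genes and then ran RNA-seq Differential Expression 1.0.1; STAR 2.6.1a and Salmon are named in the submitters' processing notes. How counts were normalized, and whether strand was used, is not given in the sources used here.

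A pseudocount of 1 was added, log2 taken, and genes with a mean of at least 10 tested with limma 3.58.1 (R 4.3.3), using a trended prior, two-sided tests and Benjamini-Hochberg adjustment over 12477 genes at 0.05. Fold changes are on the log2(value + 1) scale, which understates low genes. The test was checked on simulated data that used the spread of the vehicle libraries for both groups. That check does not represent the unequal libraries of the doxorubicin group. Reads per library were estimated from the most common low value, worth 0.635 to 1.48 normalized counts a read, and whole reads were not recovered, so no count model was used. The lowest value of any member was 37.9. Coordinates are RefSeq GRCm38.p6, counted from 1, and lengths are GENCODE M21. Figures used matplotlib 3.10.9.

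The members, lists and tests were chosen with earlier results of these data known. Apart from the members, the cell type markers, Xist and Ddx3y, genes were named by rule. In each other list these were the 2 with the highest and the 2 with the lowest log2 fold change. The 3 genes most like Cdkn1a and Ccng1 were named too. Same-numbered libraries did not deviate together (correlations of -0.13, 0.03 and -0.09 across genes), and nothing in the labels pairs them, so the main test has no block. Alternatives were other pseudocounts, filters and scalings, limma settings, library weights, a replicate block, a class covariate and leaving out each library.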

Additional observations from a re-analysis of the deposited data

How the results depend on the processing

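By limma with 6 equally weighted libraries, 0 genes and 0 members were called at pseudocounts of 0.5 and 8, without a filter, at a minimum mean of 50, under equal totals or quantile scaling, with robust estimation, with an untrended prior and with the class covariate. The replicate block also gave 0 genes and 0 members, with a smallest adjusted p of 0.115, and the numbers do not pair the samples. Library weights, which gave doxorubicin replicate 1 a weight of 0.277, called 1954 genes higher and 2318 lower, with 5 members higher and 1 lower. A threshold of 0.10, added after the data were seen, gave 1383 genes higher and 1639 lower, with 3 members higher and 1 lower. Leaving out 1 library at a time gave 0 to 2409 genes higher and 0 to 2718 lower, and 0 to 5 members higher and 0 to 1 lower; the upper values came without doxorubicin replicate 1, and without doxorubicin replicate 2 a single gene outside the circuit was lower. Members with groups that did not overlap numbered 4 to 6 higher (20.5 to 31.6% of all genes) and 1 to 2 lower (24 to 32.9%) when 1 library was left out, Sesn1 joining Ccng1 without doxorubicin replicate 2.

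The median of all genes was 0.29 under equal totals. The signs of Trp53 and Sesn1 turned there, to 0.19 and 0.17. Sesn1 also turned with library weights, to 0.050, and Trp53 without vehicle replicate 1, to 0.026, within a range of -0.25 to 0.026 when single libraries were left out. The cause was not tested. The other 8 members kept their sign in all 17 alternative fits. The log2 ratio of Cdkn1a to Ccng1 ran from 2.89 to 4.72 and that of Cdkn1a to Mdm2 from 1.87 to 3.29 when libraries were left out. Depth limits the genes at a few counts, such as Ckap2 and E2f1.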
